A study of Danio rerio with 2 samples.

Results

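The genes described here encode the core proteins of the spliceosome and the SR and hnRNP proteins that guide it. The rule that picks them uses symbols and no measured values: it takes all rows of the deposited table that begin with srsf, snrp, hnrn, hnrp, sf3a, sf3b, prpf, u2af or lsm and a digit, without rows that join several symbols. This gave 74 of 14428 genes. No row of joined symbols held one of them.

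RNA was sequenced from zebrafish (Danio rerio) embryos carrying the transgene crestin_1kb:EGFP, in which a fragment of the neural crest gene crestin drives the fluorescent protein EGFP. All cells came from embryos of this one genotype at 15 SS, a stage of somite formation. A library was made from the EGFP-positive fraction, about 5500 sorted cells, and another from the EGFP-negative fraction, about 100000 sorted cells. The EGFP-positive cells are those in which this fragment was active, and the EGFP-negative cells are a mixture of the rest of the embryo.

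With 1 library per fraction there was no replicate, so values carry no error and differences could not be tested. Levels are FPKM, fragments scaled by gene length and by library size, as the authors deposited them, and the sequencing depth behind them is unknown. The log2 ratio of a gene is log2(FPKM + 1) in the EGFP-positive fraction minus the same in the EGFP-negative fraction, which makes differences between low values look smaller. Genes were considered from 1 FPKM in either fraction. They were called higher or lower in the EGFP-positive fraction where the 2 values lay at least 2-fold apart on that scale. Every count of genes 2-fold apart is on that scale, while a fold ratio given for a single gene is the plain quotient of FPKM.

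Of 8 marker genes of the neural crest, 7 were called higher in the EGFP-positive fraction and none lower, with summed levels of 1065 against 264 FPKM. All 4 muscle markers, all 3 heart markers and 3 of 4 endothelial markers were called lower, with sums of 41.9 against 167 FPKM for muscle, 259.7 against 1747 FPKM for heart and 139.7 against 603 FPKM for endothelium. Of the other markers, 1 of 4 for blood was called lower (sums 1282 against 2426 FPKM), none of 3 for neural tube was called (144 against 192 FPKM), and 1 of 3 for epidermis was called higher (307 against 187 FPKM). Most of the blood sum came from hbae1, at 1157 against 2287 FPKM and not called. Gata1a was at 11.3 against 14.2 FPKM, and lyz was on the other side, at 106 against 53.8 FPKM. Among all genes considered, 22.9% were called higher and 26.5% lower. No marker was listed at 0 in either library, and crestin and EGFP themselves were not analysed here. In bulk RNA of this kind, fewer cells of a type and less RNA per cell cannot be told apart. The part of this difference in cell types in any value that follows was not tested.

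The spliceosome removes introns from pre-mRNA. It is built from small nuclear ribonucleoproteins (snRNPs), each a small RNA with a ring of Sm or LSm proteins and a set of particle-specific proteins. U1 marks the start of the intron and U2 its branch point, and the U4/U6.U5 tri-snRNP then joins and is rearranged into the catalytic form. SR proteins mostly promote the use of a nearby splice site, while hnRNPs coat pre-mRNA and often oppose them. Every cell uses this machinery, yet in humans mutations in several of its genes cause disorders of the facial skeleton, a structure largely made by the neural crest.

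Spliceosome, SR and hnRNP genes were abundant in both libraries, and most of them lay less than 2-fold apart. Of the 74, 39 were at 100 FPKM or more in the EGFP-positive fraction and 38 in the EGFP-negative fraction, which is 52.7% and 51.4% of them, while 9.16% and 9.02% of all rows reached that level. Another 3 genes were listed at 0 in both libraries, the Sm protein gene snrpf, the SR protein gene srsf7 and the LSm gene lsm14b. The row of srsf7 is now named srsf7b. The other 71 genes were considered. A value of exactly 0 can be a failed estimate, so the 3 genes are not described as silent.

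Of these 71 genes, 6 were called higher and 5 lower in the EGFP-positive fraction, where 22.9% of all 9685 genes considered were called higher and 26.5% lower. The 6 higher genes were prpf3, sf3b5, snrpb2, lsm7, lsm4 and prpf4ba, and the 5 lower ones were lsm12a, prpf38a, prpf31, prpf4bb and lsm14aa. The other 60 stayed within 2-fold on the scale with the pseudocount, among them hnrnpd and hnrnph1, whose plain ratios of 0.478 and 0.493 fall just past 2-fold. With both libraries scaled to the same sum without rn7sk, the most abundant gene, 6 were higher and 7 lower, as sf3a3 and hnrnpd also passed the limit. The median log2 ratio was -0.02 over the 71 genes and -0.04 over all genes considered, and the median size of the log2 ratio, regardless of sign, was 0.34 and 0.98. On the same scale 30 of the 71 genes, or 42.3%, lay within 1.2-fold, against 16.3% of all genes considered. Only lsm12a was listed at 0 in one library and above 0 in the other, which is 1.41% of the 71, while 23.1% of all genes considered were.

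**Figure D1:**
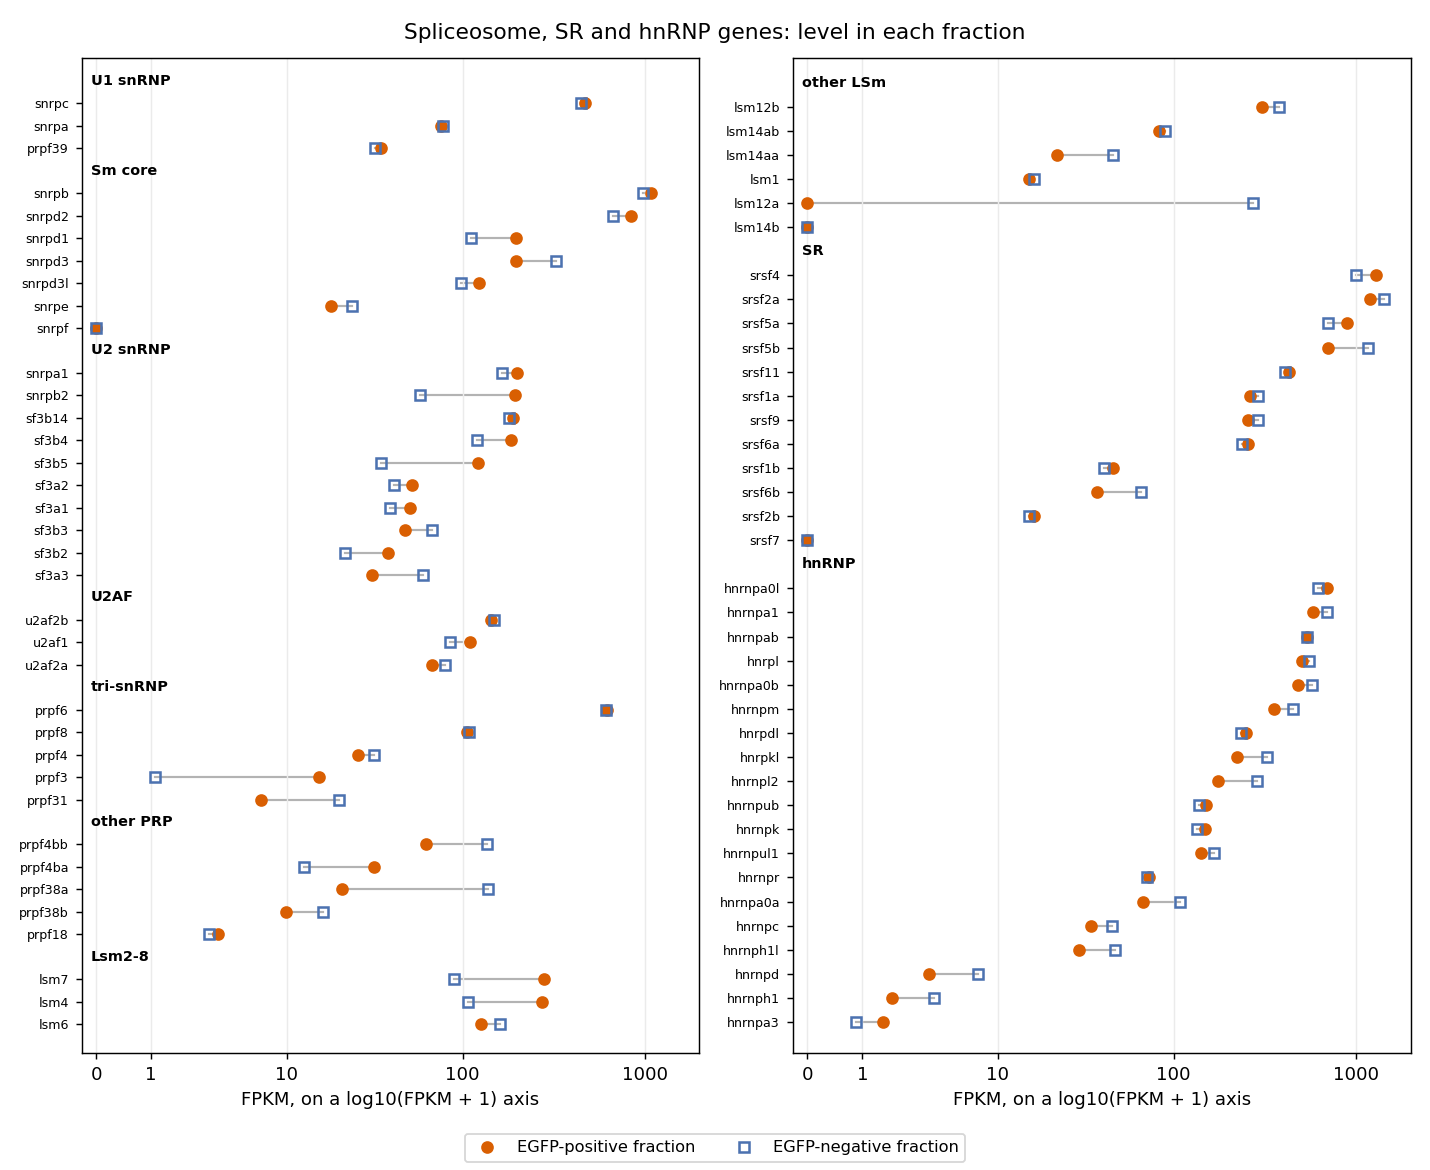
Level of 73 of the 74 genes in the EGFP-positive fraction (filled circles) and the EGFP-negative fraction (open squares), by protein class, in FPKM on a log10(FPKM + 1) axis. Many pairs of symbols touch or overlap. The longest lines belong to lsm12a, prpf3 and prpf38a, and 3 genes sit at 0 in both libraries.

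Abundant genes differed less in the whole table, so the counts were also set out by level. Among genes with a mean level under 20 FPKM, 3 of 10 spliceosome, SR and hnRNP genes lay at least 2-fold apart in either direction, and 65.3% of all genes did. From 20 up to 100 FPKM the counts were 5 of 24 and 31.3% of all genes. From 100 up to 1000 FPKM they were 3 of 34 and 20.1%, and at 1000 FPKM or more none of 3 and 6.14%. Over all levels together 49.4% of genes lay 2-fold apart. In each of the 4 ranges the share was smaller among the spliceosome, SR and hnRNP genes, with few of them in the lowest and highest range. A listed 0 pulls the mean level down, and a gene at 0 in one library always counts as apart. Lsm12a, at 0 against 272 FPKM, thus fell in the lowest range at 15.5 FPKM. Over all levels 23.1% of all genes considered had such a 0, against 1.41% of the 71, so the lowest range is not a like comparison. The small number of spliceosome, SR and hnRNP genes also limits what these shares can show.

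**Figure D2:**
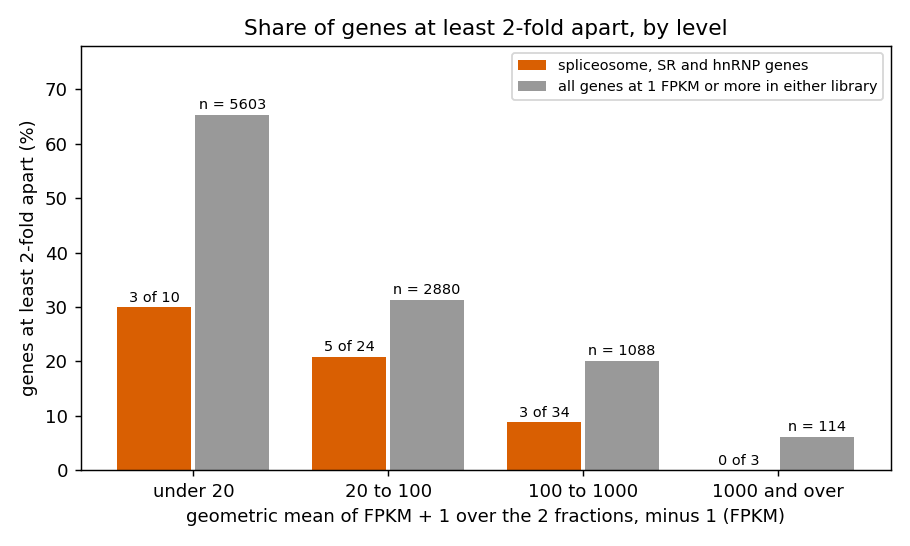
Share of genes at least 2-fold apart between the EGFP-positive and the EGFP-negative fraction, in percent, by mean level, for the spliceosome, SR and hnRNP genes (orange) and all genes at 1 FPKM or more in either library (grey). The orange bars stand for 3 of 10, 5 of 24, 3 of 34 and 0 of 3 genes, and the grey bars fall with rising level.

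The order of the levels was also much alike. Across the 70 genes above 0 in both libraries, Spearman's rho between the libraries was 0.93 and Pearson's r of log2(FPKM + 1) was 0.93. Across the 7449 of all genes considered that were above 0 in both, they were 0.80 and 0.84. With genes at 0 in one library kept, they were 0.89 and 0.84 for the 71 genes and 0.65 and 0.63 for all 9685. These values describe genes within 1 pair of libraries, and genes are not independent replicates. The sets were not matched for level, and abundant genes differed less in the whole table, so this is not a like comparison. The fractions shared 9 of their 10 most abundant genes: srsf4, srsf2a, snrpb, srsf5a, snrpd2, srsf5b, hnrnpa0l, prpf6 and hnrnpa1. The tenth was hnrnpab in the EGFP-positive fraction and hnrnpa0b in the EGFP-negative fraction. Summed over the 71 genes, FPKM came to 16415 in the EGFP-positive fraction and 16808 in the EGFP-negative fraction. That was 1.75% and 2.02% of all FPKM once the most abundant gene, the small nuclear RNA gene rn7sk, was left out.

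None of the 4 genes of the U1 snRNP was called, and all 4 lay within 1.2-fold on the log2(FPKM + 1) scale. Among all genes considered, 49.4% were called either way and 16.3% lay within 1.2-fold. By mean level the U1 genes stood in the ranges from 20 up to 100 and from 100 up to 1000 FPKM. In these, 31.3% and 20.1% of all genes were called. Snrpc, whose protein U1-C steadies the pairing of U1 with the start of the intron, was at 471 FPKM in the EGFP-positive fraction against 446 FPKM in the EGFP-negative fraction. Snrpa, the U1-A protein that binds a stem loop of the U1 RNA, was at 76.4 against 77.7 FPKM. Prpf39, whose counterpart in yeast belongs to the U1 particle, was at 35.1 against 32.5 FPKM.

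The Sm proteins form the ring that is shared by U1, U2, U4 and U5. None of the 6 Sm genes above 0 was called, beside 49.4% of all genes considered. Of all genes with a mean level from 100 up to 1000 FPKM, where most Sm genes stood, 20.1% were called. The levels of the 6 Sm genes spanned more than an order of magnitude in each library. Snrpb, which encodes SmB, was the most abundant at 1079 FPKM in the EGFP-positive fraction and 977 FPKM in the EGFP-negative fraction. Snrpd2 was at 844 against 669 FPKM, snrpd1 at 198 against 111 FPKM and snrpe at 18.2 against 24.0 FPKM. The largest difference was that of snrpd1, a log2 ratio of 0.83, still under the 2-fold limit. The 2 genes for SmD3 lay on opposite sides, with snrpd3 at 198 against 325.5 FPKM and its copy snrpd3l at 123 against 98.7 FPKM. All Sm proteins are needed in equal numbers in a ring, but RNA and not protein was measured here. The values of these genes, which are per length, were far from equal in both libraries, and snrpf was listed at 0 in both. They do not show how much of each protein was present.

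The U2 snRNP and its SF3A and SF3B complexes hold the branch point. Of the 10 genes of this class, 2 were called higher and none lower, beside 22.9% higher and 26.5% lower among all genes, and the median log2 ratio was 0.35. When both libraries were scaled to the same sum without rn7sk the median was 0.19, and sf3a3 was called lower at -1.09. Snrpb2, whose protein U2-B″ binds the U2 RNA, was at 193 FPKM in the EGFP-positive fraction against 58.2 FPKM in the EGFP-negative fraction, a 3.32-fold ratio. Its partner in that contact, U2-A′, is encoded by snrpa1, which was at 199.6 against 164 FPKM. Sf3b5, a small subunit of SF3B, was at 122 against 35.2 FPKM, a 3.46-fold ratio.

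The other SF3B genes of this class lay less than 2-fold apart, and sf3b1 was not among the genes studied. Sf3b4, whose protein binds RNA next to the branch point, was at 185 against 119.6 FPKM, and sf3b2, its partner, at 38.5 against 21.9 FPKM. Sf3b14, now named sf3b6, encodes the subunit found at the branch point adenosine and was at 189 against 179.7 FPKM. Sf3b3, a large subunit of SF3B, was at 48.0 against 67.4 FPKM. Among the 3 SF3A genes, sf3a1 was at 51.1 against 39.3 FPKM, sf3a2 at 52.8 against 41.6 FPKM and sf3a3 at 31.3 against 60.4 FPKM. Sf3a3 was the lowest of the class by log2 ratio, at -0.93. The order of the 10 genes by level was the least alike of the 4 classes with 6 or more genes considered, with Spearman's rho of 0.50 between the libraries, against 0.94 in the 6 Sm genes, 0.95 in 11 SR genes and 0.98 in 19 hnRNP genes. The U2 genes spanned a narrower range of levels, 31.3 to 199.6 FPKM in the EGFP-positive fraction. There the Sm genes spanned 18.2 to 1079 FPKM, the SR genes 16.4 to 1291 FPKM and the hnRNP genes 1.58 to 693 FPKM. A narrow range can lower rho, so the classes are not on a like footing, and the difference in rho was not tested.

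U2AF recognises the end of the intron before U2 joins, and its genes stood close together. U2af1, the small subunit that reads the terminal AG, was at 110.5 against 85.0 FPKM. Of the 2 genes of the large subunit, which binds the pyrimidine tract, u2af2a was at 67.4 against 79.7 FPKM and u2af2b at 144 against 148 FPKM. None of the 3 was called, beside 49.4% of all genes considered. By mean level they stood in the ranges from 20 up to 100 and from 100 up to 1000 FPKM. In these, 31.3% and 20.1% of all genes were called, so none of 3 shows little.

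In the tri-snRNP, 3 of 5 genes lay less than 2-fold apart, 1 was called higher and 1 lower. Among all genes considered 22.9% were called higher and 26.5% lower. Prpf8, the scaffold of the catalytic centre, was at 106 FPKM in the EGFP-positive fraction and 108 FPKM in the EGFP-negative fraction, and prpf6, which bridges U5 with U4/U6, at 625 against 614 FPKM. Prpf4, a U4/U6 protein, was at 26.1 against 32.0 FPKM. Its direct partner prpf3 was called higher, at 15.5 against 1.10 FPKM, a 14.1-fold ratio. This was the widest of the 70 genes above 0 in both libraries, but it rests on a value near the minimum. With a pseudocount of 5 FPKM its log2 ratio was 1.75, and that of prpf38a, -2.44, was wider. Prpf31, which binds U4 and is needed for the tri-snRNP to form, was called lower, at 6.93 against 20.2 FPKM. Prpf3 and prpf31 were the 2 least abundant of the 5 genes in the EGFP-positive fraction and also in the EGFP-negative one. In humans, mutations in the genes of this group are a known cause of inherited retinal degeneration.

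**Figure D3:**
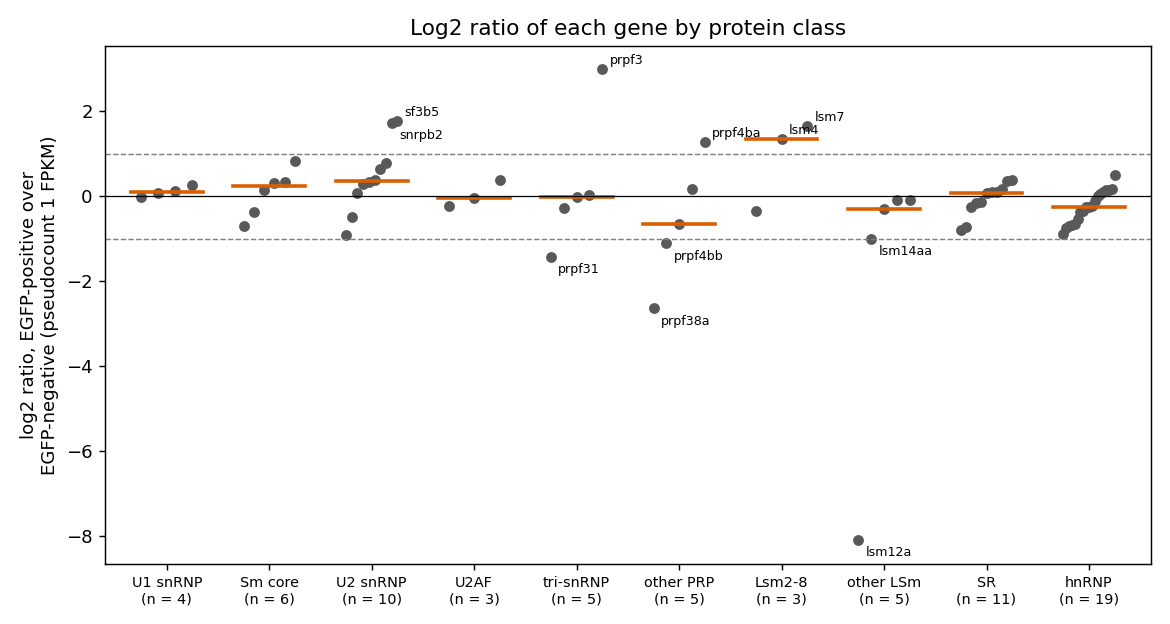
Log2 ratio of EGFP-positive over EGFP-negative FPKM, with a pseudocount of 1 FPKM, for the 71 genes considered (points) and the median of each protein class (orange bars). Dashed lines mark 2-fold, and the 11 named genes lie beyond them; as deposited, all U1, Sm, U2AF, SR and hnRNP genes lie between the lines.

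The remaining PRP factors were mostly low in abundance, and 3 of 5 were called, beside 49.4% of all genes considered. Prpf38a, a protein that arrives just before the spliceosome is activated, was at 21.3 FPKM in the EGFP-positive fraction against 137.5 FPKM in the EGFP-negative fraction, the lowest ratio of the 70 genes above 0 in both libraries. Prpf38b, a separate gene of related sequence, was at 9.99 against 16.4 FPKM. Prpf18, a factor of the second catalytic step, was at 3.65 against 3.15 FPKM. The kinase PRP4, which in humans phosphorylates tri-snRNP proteins, is encoded by prpf4ba and prpf4bb here. Prpf4ba was called higher, at 32.0 against 12.7 FPKM, and prpf4bb lower, at 62.7 against 136.6 FPKM. The sum of both was 94.8 against 149 FPKM, a log2 ratio of -0.65. As a share of that sum, prpf4ba made up 33.8% in the EGFP-positive fraction and 8.49% in the EGFP-negative fraction.

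The LSm proteins 2 to 8 form the ring on U6 RNA, and 3 of their genes were among those studied. Lsm7 was called higher, at 281 FPKM in the EGFP-positive fraction against 89.4 FPKM in the EGFP-negative fraction, and so was lsm4, at 272 against 107 FPKM. Lsm6 was at 126 against 160.1 FPKM. Among all genes considered 22.9% were called higher. From 100 up to 1000 FPKM by mean level, where these 3 genes stood, 20.1% of all genes were called either way. In the EGFP-positive fraction lsm4 and lsm7 stood at nearly one level, above lsm6, and in the EGFP-negative fraction both stood below it. All 3 proteins also belong to a second ring, in the cytoplasm, that takes part in mRNA decay. The gene that marks that ring, lsm1, was at 15.3 against 16.5 FPKM.

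The other LSm-domain genes encode proteins that work outside the spliceosome. With lsm1, 5 of them were considered and 2 were called lower, beside 26.5% of all genes considered. Lsm14aa and lsm14ab, whose proteins belong to cytoplasmic RNA granules, were at 22.2 against 45.8 FPKM and 83.1 against 89.1 FPKM, and the first was called lower at a log2 ratio of -1.01, just past the limit. With a pseudocount of 5 FPKM its log2 ratio was -0.90, short of the limit. Lsm12a was listed at 0 in the EGFP-positive fraction, against 272 FPKM in the EGFP-negative one. Lsm12b was at 307 against 379 FPKM. The reference gene table lists each of these 2 names as an older name of the other, so which copy either row stands for is uncertain. Their sum was 307 against 651 FPKM.

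None of the 11 SR protein genes above 0 was called, and 7 of them lay within 1.2-fold. Among all genes considered, 49.4% were called and 16.3% lay within 1.2-fold. Abundant genes were called less often, 20.1% of all genes from 100 up to 1000 FPKM and 6.14% at 1000 FPKM or more. Most SR genes stood in these ranges. By median level the SR genes were the most abundant class in the EGFP-negative fraction, with a median of 263 against 291 FPKM. In the EGFP-positive fraction they were second to the 3 LSm genes. Among these 11 genes, srsf4 was the most abundant in the EGFP-positive fraction, at 1291 against 1001 FPKM. Srsf2a, which encodes the nuclear speckle protein SC35, was the most abundant of them in the EGFP-negative fraction, at 1197 against 1431 FPKM. The copies of srsf3 carry older names outside the symbol pattern and are not counted here. In the EGFP-positive fraction both stood above all 11 genes, with sfrs3b at 1923 FPKM and sfrs3a at 1457 FPKM. In the EGFP-negative fraction sfrs3a did so at 1603 FPKM, but sfrs3b, at 999 FPKM, stood below srsf4. Srsf1a, a copy of the gene for the founding SR protein ASF/SF2, was at 263 against 291 FPKM. Srsf9 was at 257.5 against 290.1 FPKM and srsf11 at 432 against 410.4 FPKM. Among the 11, the lowest log2 ratio was that of srsf6b, -0.81, and the highest that of srsf4, 0.37. That of sfrs3b, outside the pattern, was 0.94. Summed over the class, FPKM was 5406 against 5657.

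None of the 19 hnRNP genes was called as deposited, although hnrnpd passed the limit with a pseudocount of 0.1 FPKM (-1.05) and on scaling without rn7sk (-1.03). Among all genes considered 49.4% were called. From 100 up to 1000 FPKM, where most hnRNP genes stood, 20.1% of all genes were called. The median log2 ratio of the 19 genes was -0.26, in a range of -0.89 to 0.48 as deposited. It was -0.43 when both libraries were scaled to the same sum without rn7sk. Hnrnpab, now named hnrnpaba, was at 541 FPKM in both libraries, and hnrnpr at 73.3 against 71.4 FPKM. The A-type hnRNPs, which often oppose SR proteins at splice sites, spanned the whole range of levels. Hnrnpa1, now named hnrnpa1b, was at 583 against 697 FPKM and hnrnpa0l at 693 against 618 FPKM. Hnrnpa3 was at 1.58 against 0.844 FPKM, both values close to the minimum of 1 FPKM.

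The hnRNPs that bind other RNA motifs stood at a wide range of levels. Hnrnpk, which binds stretches of C, was at 149 against 134.5 FPKM, while its relative hnrpkl was at 225 against 325 FPKM. In the family that binds CA repeats, hnrnpl2 was at 175 against 288 FPKM and hnrpl at 509 against 553 FPKM. Hnrpl is an older name of 2 genes in the reference table, so its row is uncertain. Hnrnpc, which binds runs of U, was at 34.8 against 45.3 FPKM, and hnrnpm, which binds GU-rich RNA, at 356 against 451 FPKM. Hnrnpd, also known as AUF1 for its binding to AU-rich RNA, was at 3.63 against 7.61 FPKM, the lowest log2 ratio of the class at -0.89. Its relative hnrpdl was at 252 against 234 FPKM. Hnrnpub, of the scaffold-attachment family, was at 151 against 137.6 FPKM, and hnrnpul1 at 141 against 167 FPKM.

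Zebrafish keep many genes as duplicates, and 12 pairs with like names could be compared within each library. One of them, prpf38a and prpf38b, holds genes that are separate in mammals as well. In 11 of the 12 pairs the same gene was the more abundant in both libraries. The 11 include lsm12, for which it is uncertain which copy each row stands for. Pairs in the rest of the table were not counted, so no background share is known. Srsf2a made up 98.6% of its pair in the EGFP-positive fraction and 98.9% in the EGFP-negative fraction, srsf1a 85.0% and 87.6%, and u2af2b 68.1% and 65.1%. Hnrnpa0b made up 87.8% and 84.2%, with hnrnpa0a at 67.4 against 108.7 FPKM and hnrnpa0b at 483 against 578 FPKM. Hnrnph1l, of the family that binds runs of G, made up 93.9% and 92.3%, at 29.6 against 47.1 FPKM, with hnrnph1 at 1.92 against 3.91 FPKM.

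The exception among the 12 was srsf5, in which the leading copy changed. It also changed between sfrs3a and sfrs3b, which carry older names and are not among the 12. Srsf5a was at 901 FPKM in the EGFP-positive fraction against 702 FPKM in the EGFP-negative fraction, and srsf5b at 709 against 1169.6 FPKM. Srsf5a thus made up 55.9% of the pair in the EGFP-positive fraction and 37.5% in the EGFP-negative fraction, while the sum of both, 1610 against 1872 FPKM, had a log2 ratio of -0.22. In 6 of the 12 pairs the log2 ratios of the copies had opposite signs, namely prpf4b, snrpd3, srsf1, srsf2, srsf5 and srsf6; after scaling to the same sum without rn7sk this was so in 3, prpf4b, snrpd3 and srsf5. In the srsf6 pair srsf6a was at 256 against 239 FPKM and srsf6b at 37.4 against 66.1 FPKM. In srsf1 and srsf2 the minor copies lay within 1.2-fold, with srsf1b at 46.2 against 41.3 FPKM and srsf2b at 16.4 against 15.3 FPKM. Only the sums of 2 pairs lay 2-fold apart, lsm12 at a log2 ratio of -1.08 and prpf38 at -2.26. Copies of similar sequence can share reads, and how the authors' counting divided such reads was not tested.

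**Figure D4:**
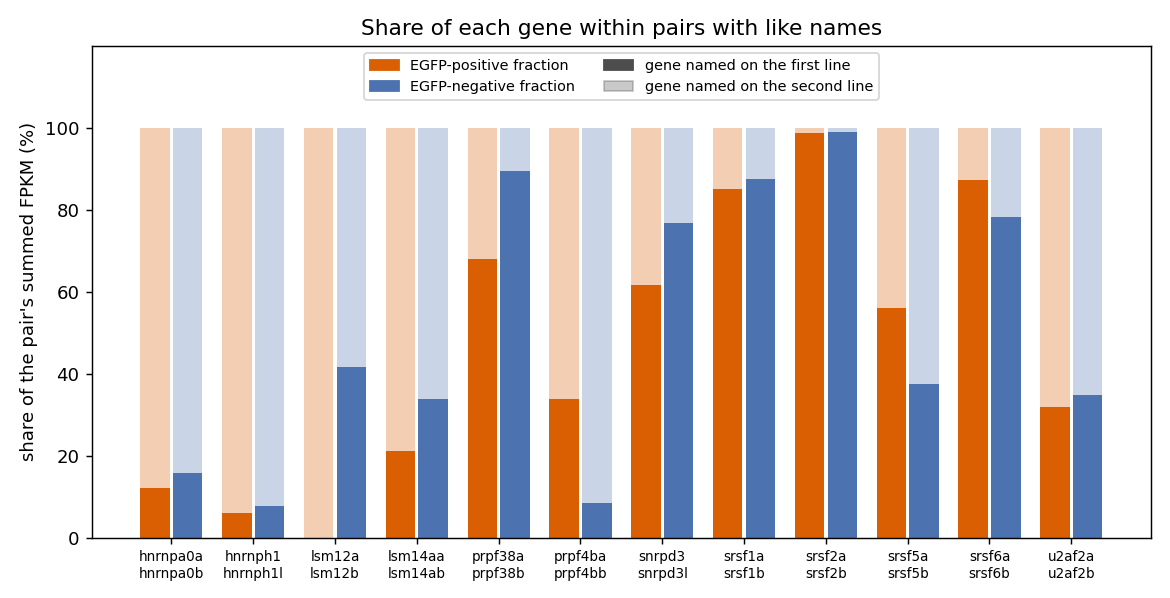
Share of each gene in the summed FPKM of 12 pairs with like names, in percent, with the EGFP-positive fraction on the left and the EGFP-negative fraction on the right of each pair; the full colour is the gene named on the first line. Srsf2a holds nearly all of its pair in both libraries, and srsf5 is the pair in which the larger share changes sides.

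Other splicing genes gave the wider setting. Their list was written from general knowledge, but with earlier results of these data known. Of 108 genes listed 83 were found, and of these 7 were called higher and 13 lower, and 63 lay less than 2-fold apart, with a median log2 ratio of -0.13, beside 22.9% higher and 26.5% lower among all genes. With both libraries scaled to the same sum without rn7sk, 5 were higher and 19 lower. Among those above 0 in both libraries the 4 highest were bcas2, a member of the Prp19 complex (146 against 16.6 FPKM), snrnp48, a protein of the minor spliceosome (95.5 against 13.1 FPKM), gemin2, a part of the SMN complex that loads Sm rings onto RNA (349.8 against 90.5 FPKM), and coil, the marker protein of Cajal bodies (97.1 against 40.8 FPKM). The 4 lowest were crnkl1, another protein of the Prp19-related machinery (3.74 against 19.8 FPKM), the tri-snRNP gene snrnp27 (232 against 769 FPKM), cd2bp2, a U5 protein (11.8 against 28.7 FPKM), and smndc1, a relative of SMN (23.7 against 56.0 FPKM). With scaling to the same sum without rn7sk, eftud2 and eif4a3 were each at a log2 ratio of 0.86 and not called. As deposited, the other genes called higher were eftud2, eif4a3 and zmat5, and the others called lower were pdcd7, ppie, raly, txnl4b, snrnp35, khdrbs1b, sart1, luc7l and syf2. Of these, zmat5 was listed at 0 in the EGFP-negative fraction, and pdcd7, ppie, raly, txnl4b and snrnp35 in the EGFP-positive fraction.

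Several of these genes belong to the U11/U12 particle of the minor spliceosome, which removes a small class of introns; they were put together after their values had been seen. Snrnp48 was called higher, and zmat5 was at 8.0 FPKM in the EGFP-positive fraction against a listed 0 in the other. In the EGFP-positive fraction, pdcd7 (185 FPKM in the other) and snrnp35 (2.62 FPKM) stood at a listed 0, as did the U11 RNA gene rnu11 (844 FPKM), the only row whose symbol begins with rnu. Rnpc3 was at 22.3 against 13.05 FPKM and zcrb1 at 25.9 against 21.4 FPKM. The particle's genes thus lay on both sides, and 4 of the 7 rest on a value listed at 0.

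The human genes for EFTUD2, SF3B4, SNRPB and TXNL4A are known for mutations that cause malformations of the face. Their zebrafish counterparts were set side by side after the values were known. Eftud2, the GTPase of the U5 particle, was at 118 FPKM in the EGFP-positive fraction against 57.5 FPKM in the EGFP-negative fraction, a log2 ratio of 1.03 just past the limit, or 0.86, short of it, when both libraries were scaled to the same sum without rn7sk. The values of sf3b4, 185 against 119.6 FPKM, and of snrpb, 1079 against 977 FPKM, lay less than 2-fold apart. So did those of txnl4a, a small U5 protein, at 10.1 against 17.0 FPKM. As deposited, the EGFP-positive value was the larger for eftud2, sf3b4 and snrpb and the smaller for txnl4a. These 4 genes are not meant as a full list, and a different choice could give a different picture.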

How the data were processed

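The authors deposited 1 table of FPKM values, with 1 column for each of the 2 libraries, matched here by the sample descriptions. Per the submitters' processing notes, cutadapt, TopHat2 2.0.11 and Cufflinks 2.2.1 were used with the build Zv9. The sources used here do not state the options, the annotation or how the libraries were scaled to each other. Whole-read steps were sought in 712 low genes (each value above 0 and under 6 FPKM): the fullest bin of log2 ratios, 0.02 wide, held 1.54%, which shows no steps, so depth is unknown. Python 3.11.15 and pandas 2.3.3 were used. The pseudocount and the minimum were 1 FPKM. Of the 74 symbols, 68 are current in the RefSeq gene table and 6 are older names in it. Mean level is the geometric mean of FPKM + 1, minus 1. The named genes are all those called or listed at 0, each class's highest, lowest and most abundant, and all pairs; other members were added to complete the classes. The members and lists were chosen with earlier results of these data known. Protein sequences were not used here, and 1 member is counted but not reported here by itself. The call rule was also run on simulated data with little noise and a set rise far past the limit. Its outcome was fixed in advance, so it says nothing about how reliable the calls in the real data are.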

Additional observations from a re-analysis of the deposited data

How the results depend on the processing

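With 1 library per group no spread between samples is known, and depth is unknown, so no value here has an error. No paired analysis was possible because each group has 1 library. The counts of 6 higher and 5 lower genes stayed within 1.5 times under the 7 alternatives, and every single call held where the gene was kept, except that of lsm14aa at a pseudocount of 5 FPKM. Hnrnpd was gained as lower at a pseudocount of 0.1 FPKM, and hnrnpd and sf3a3 on rescaling. Prpf3 falls out at a minimum of 20 FPKM, and lsm12a where genes at 0 are left out. Medians were counted as moved from 0.1 on the log2 scale, and 93 of 112 values of counts and medians under the alternatives did not move. Part of that tally was fixed in advance. Without the minimum of 1 FPKM the same genes were kept, so no count or median could move. Centring on the median of genes above 0 in both libraries subtracted 0.03, so no median could pass the limit. Rescaling without rn7sk shifted log2 ratios at high FPKM by -0.17, past the limit of 0.1. Every median moved, which was thus also fixed in advance. Rescaling both libraries to the same sum without rn7sk shifted the median of all genes by -0.16. The medians then were -0.20 for all 71 genes, -0.30 for the other splicing genes, -0.076 for U1, 0.056 for Sm, 0.19 for U2, -0.22 for U2AF, -0.20 for the tri-snRNP, -0.82 for other PRP factors, 1.17 for LSm 2 to 8, -0.48 for other LSm genes, -0.10 for SR and -0.43 for hnRNP genes. The U1 and SR medians, 0.09 and 0.07 as deposited, thus changed sign. With a minimum of 20 FPKM, medians were -0.16 for the tri-snRNP, -1.11 for other PRP factors, -0.66 for other LSm genes and -0.036 for SR genes. With a pseudocount of 5 FPKM that of other PRP factors was -0.51. Over genes above 0 in both libraries, the median of other LSm genes was -0.20 and 8 other splicing genes were lower.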

Other observations

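Some genes of the same families carry older or other names in the table and so fell outside the symbol pattern; they were looked up after the other values had been seen. The SR protein gene srsf3 appears under its older name as 2 copies, both among the most abundant splicing genes. Sfrs3a stood at 1457 FPKM in the EGFP-positive fraction against 1603 FPKM in the EGFP-negative one, and sfrs3b at 1923 against 999 FPKM, a 1.93-fold ratio. The larger of the 2 values thus belonged to sfrs3b in the EGFP-positive fraction and to sfrs3a in the EGFP-negative one, as srsf5a and srsf5b also changed places. Prp19, the ubiquitin ligase at the centre of the Prp19 complex and now named prpf19, was at 177 against 143 FPKM. U2surp, a protein associated with U2, was at 164 against 147 FPKM.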
